A study of Mus musculus with 18 samples.

Results

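The pituitary and the skin of wild-type mice were compared across autosomal genes on 6 of the 18 arrays of the series, 3 of pituitary (arrays 10, 11 and 12) and 3 of skin (arrays 1, 2 and 3). Each array was assigned to its tissue by its label. All 6 samples are labelled as C57BL/6, female and 5 to 6 weeks old, and no treatment is given for either tissue. The other 12 arrays come from 2 knockouts, of the long noncoding RNA of MIR205HG (lncKO) and of miR-205 (miR-205 KO), again with 3 arrays of each tissue and of the same strain, sex label and age. They entered the fit as further groups, and were used to see whether the tissue difference recurred in samples that share no array with the wild type. RNA was read on Clariom S arrays, which measure most genes with 1 probe set, and the values are intensities on a linear scale. The labels give the extraction of the pituitary samples in the words used for skin, which name the ear as source. No label says how many animals stand behind a sample, so each p-value covers only how far these samples vary, and part of that variation may be technical. In a whole tissue, a gene carried by fewer cells and a gene with less RNA per cell cannot be told apart.

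The anterior pituitary is a gland of hormone-secreting cells, each of which packs large amounts of 1 or a few peptide hormones into dense-core granules and releases them when hypothalamic signals reach its receptors. Its posterior lobe holds axon endings of hypothalamic neurons together with glia. Skin is a stratified epithelium whose basal keratinocytes divide, move up and fill with keratins, lipids and cross-linked proteins until they form a dead, water-tight layer, above a dermis of fibroblasts, matrix, vessels, nerves and immune cells. In the ear the dermis lies next to cartilage, fat and thin muscle.

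The 6 hormone genes with a promoter entry and 3 genes of the cornified layers share a core promoter box that most promoters of either tissue lack, and their upstream bases are given for that reason. Each line is the sense strand of the 100 bases before the transcription start in RefSeq (GRCm38.p6), 5′ to 3′, with TATAAA, the core promoter box, in capitals.
Prl: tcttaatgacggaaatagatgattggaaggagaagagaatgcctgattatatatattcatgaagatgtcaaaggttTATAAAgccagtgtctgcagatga
Pomc: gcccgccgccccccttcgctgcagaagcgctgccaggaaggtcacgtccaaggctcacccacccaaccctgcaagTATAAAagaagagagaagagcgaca
Cga: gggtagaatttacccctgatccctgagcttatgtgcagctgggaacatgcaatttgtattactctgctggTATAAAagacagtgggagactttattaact
Lhb: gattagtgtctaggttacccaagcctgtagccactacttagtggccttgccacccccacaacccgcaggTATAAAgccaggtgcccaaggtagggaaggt
Fshb: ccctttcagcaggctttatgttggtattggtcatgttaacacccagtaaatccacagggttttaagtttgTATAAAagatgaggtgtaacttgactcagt
Tshb: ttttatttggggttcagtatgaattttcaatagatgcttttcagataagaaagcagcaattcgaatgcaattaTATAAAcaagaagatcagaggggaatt
Krt10: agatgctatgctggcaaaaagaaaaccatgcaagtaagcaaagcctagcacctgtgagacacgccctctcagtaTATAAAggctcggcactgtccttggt
Lor: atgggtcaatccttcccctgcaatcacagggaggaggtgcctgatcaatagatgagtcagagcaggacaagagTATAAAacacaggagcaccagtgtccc
Hrnr: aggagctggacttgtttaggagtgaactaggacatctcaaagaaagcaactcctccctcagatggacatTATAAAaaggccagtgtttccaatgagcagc
In all 9 the first base of the box lay between 24 and 31 bases before the start, within the 20 to 40 bases searched. Only 10 of the 30 cornified envelope genes with a promoter entry had the box there, and these 3 are among them. The coordinates on GRCm38.p6 are chr13:27057470-27057569 for Prl (plus strand), chr12:3954845-3954944 for Pomc (plus strand), chr4:34893679-34893778 for Cga (plus strand), chr7:45420846-45420945 for Lhb (plus strand), chr2:107059652-107059751 for Fshb (minus strand), chr3:102782715-102782814 for Tshb (minus strand), chr11:99389365-99389464 for Krt10 (minus strand), chr3:92083143-92083242 for Lor (minus strand) and chr3:93319649-93319748 for Hrnr (plus strand).

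Over the autosomal probe sets, log2 intensities correlated at 0.983 to 0.987 between skin arrays and at 0.990 to 0.993 between pituitary arrays, but at only 0.796 to 0.803 between tissues. A moderated linear model (limma, Benjamini-Hochberg adjustment over all named probe sets, threshold 0.05) called 4772 of 18674 autosomal genes higher in pituitary (25.6%) and 4977 higher in skin (26.7%). At least 4-fold differences were called for 1614 genes higher in pituitary (8.64%) and 1936 higher in skin (10.4%). The shares called, 25.6% and 26.7%, are the background for the counts of list members below. The lists were chosen with the values of the genes in view, so an excess over these shares is a description and not an independent test. The median log2 fold change, pituitary minus skin, was -0.01 over all autosomal genes, with a median standard error of 0.24. The largest differences were more numerous on the skin side: 157 genes were at least 256-fold higher in skin and 66 in pituitary, and 72 and 31 were at least 1024-fold higher. An intensity of 16 was used as a floor, and 3174 genes lay at or under 16 on all 3 skin arrays and 3476 on all 3 pituitary arrays. Among the genes called, 47 higher in pituitary and 103 higher in skin had both tissue means under 16. Where all 3 arrays of the lower tissue were under 16, or the value moved by over 1.5-fold, the fold change is also given with every value under 16 raised to 16, and is called floored.

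The labels were checked with Y-linked genes, which a female mouse lacks. Of 45 probe sets on the Y chromosome, 8 had all 3 pituitary arrays above all 3 skin arrays and 0 the reverse. Uty was at a mean log2 intensity of 3.03 ± 0.59 (SD, n = 3) in skin and 10.98 ± 0.12 in pituitary, and Eif2s3y at 2.88 ± 0.50 and 10.62 ± 0.05. This goes against the female label of the pituitary samples, so that sex and tissue cannot be told apart in the wild-type comparison. Uty was also low in skin and high in pituitary in both knockouts, at 3.21 and 10.99 in lncKO and 3.30 and 11.02 in miR-205 KO. In lncKO, 13 of the 45 probe sets had all 3 pituitary arrays above all 3 skin arrays and 4 the reverse. In miR-205 KO these counts were 8 and 8. By Uty, sex and tissue cannot be told apart in the knockouts either. The defining hormone genes of the pituitary and the keratins of the epidermis, given below, were high in the tissue of the label.

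**Figure D1:**
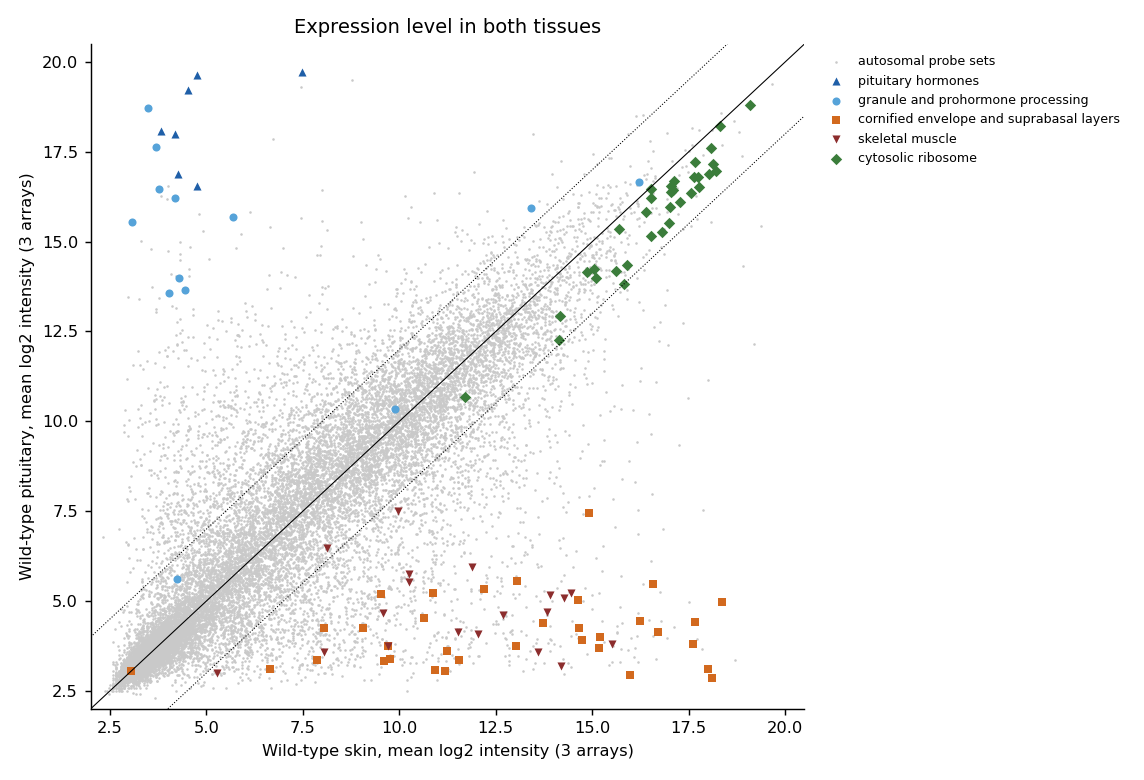
Mean log2 intensity of each autosomal probe set in wild-type skin (horizontal) and wild-type pituitary (vertical), over 3 arrays each. The solid line marks equal levels and the dotted lines a 4-fold difference. The 7 hormone genes lie at the top left, the cornified envelope genes along the bottom, and the ribosomal protein genes at the top right, mostly just under the line of equal levels.

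All 7 measured hormone genes of the anterior pituitary were higher in pituitary, with a median log2 fold change of 13.80. Prl, which encodes prolactin, gave intensities of 844370, 803845 and 816882 on the pituitary arrays and 72, 20 and 14 on the skin arrays (log2 fold change 14.88, SE 0.38). Cga, the alpha subunit shared by the glycoprotein hormones, gave 619201, 604062 and 596758 in pituitary and 44, 15 and 18 in skin. Pomc, the precursor of ACTH and melanocyte-stimulating hormone, gave 320377, 200655 and 276138 against 19, 20 and 16. The 3 pituitary values of Prl and of Cga lay within a narrow band, while those of Pomc ran from 200655 to 320377. For each of these genes the pituitary values lay far above every skin value.

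The beta subunits define the glycoprotein hormones. Lhb, of luteinising hormone, reached 273207, 284353 and 267145 in pituitary, and 12, 21 and 11 in skin (log2 fold change 14.26, SE 0.31). Fshb, of follicle-stimulating hormone, reached 105500, 110982 and 76618 against 24, 28 and 29 (11.81, SE 0.28). Tshb, of thyroid-stimulating hormone, reached 112758, 117494 and 130330 against 24, 16 and 18 (12.62, SE 0.23). None of these 3 genes had a skin value above 29.

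Gh, which encodes growth hormone, gave 894759, 846707 and 852202 in pituitary and 2501, 29 and 76 in skin. Skin array 1 thus stood apart from wild-type skin arrays 2 and 3, and the 6 knockout skin arrays lay between 7 and 15. The same array also had the highest wild-type skin value of Prl (72), Cga (44), Chgb (27), Tshb (24), Snap25 (20) and Scg2 (18). It was not the highest for Pomc, Lhb, Fshb, Scg5, Nnat or Mest, and was level with array 2 for Chga (20). Whether pituitary RNA contributed to that array was not tested. The log2 fold change of Gh was 12.26 (SE 0.90), and became 14.17 without skin array 1, 10.95 without skin array 2 and 11.65 without skin array 3. That of Prl was 15.58 without skin array 1.

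**Figure D2:**
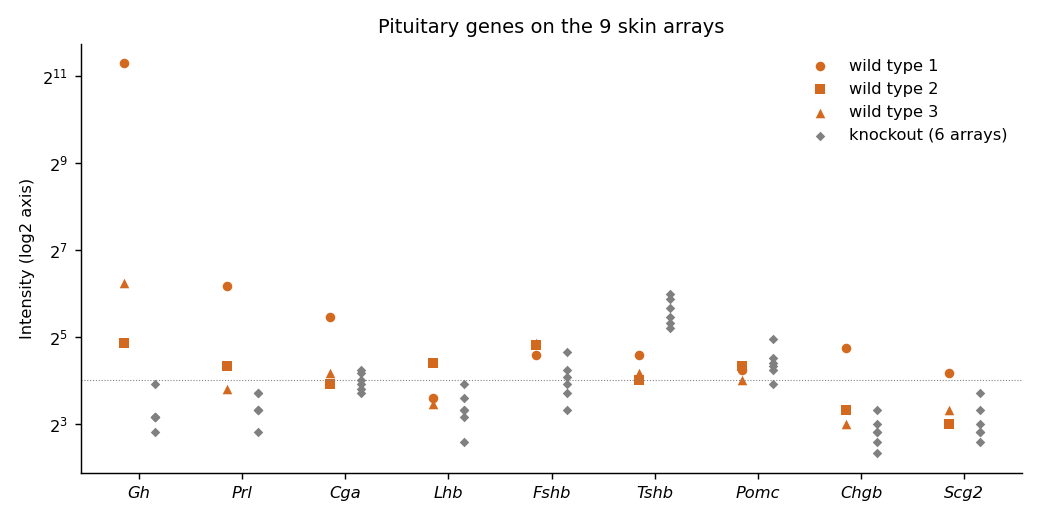
Intensity (log2 axis) of 9 pituitary genes on the 3 wild-type and 6 knockout skin arrays, with a dotted line at 16. Wild-type array 1 is highest for Gh at 2501, while Tshb is higher on the 6 knockout arrays (37 to 63) than on the wild-type arrays (16 to 24).

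Of 15 receptors through which hypothalamic and peripheral signals reach the gland, 12 were higher in pituitary and 1 in skin, with a median of 4.52. The receptors for growth hormone-releasing hormone, gonadotropin-releasing hormone and dopamine had the largest differences. Ghrhr gave 29581, 23595 and 28498 in pituitary and 23, 16 and 11 in skin, a log2 fold change of 10.73 (SE 0.29). Gnrhr gave 18036, 15386 and 17225 against 11, 31 and 19 (9.82, SE 0.31). Drd2, the dopamine receptor of lactotrophs, gave 11000, 6015 and 9054 against 11, 18 and 11 (9.35, SE 0.27). The receptors for thyrotropin-releasing hormone (Trhr, 4.55 or 4.01 floored), corticotropin-releasing hormone (Crhr1, 4.49) and somatostatin (Sstr2, 4.52, and Sstr5, 5.72 or 5.10 floored) were higher in pituitary too, at intensities between 209 and 674 there. Vipr2, a receptor for vasoactive intestinal peptide, was the member higher in skin, at 33, 35 and 66 against 23, 25 and 20. Its log2 fold change of -0.91 became -0.59 without skin array 3, with an adjusted p of 0.062 in limma. Avpr1b (0.18) and Galr1 (0.16) did not pass, with no intensity above 21 on any of the 6 arrays.

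Of 17 measured transcription factors of pituitary development and lineages, 13 were higher in pituitary and 0 in skin, with a median of 3.39. Six6 gave 10146, 8669 and 8241 in pituitary and 12, 13 and 14 in skin (9.44, SE 0.21, or 9.13 floored). Neurod4 followed at 8.23 (7.17 floored). Tbx19, the factor that drives Pomc transcription, gave 6570, 3068 and 4622 against 15, 20 and 22, so that its pituitary arrays spanned more than those of Six6. Lhx3 (5.75, or 4.85 floored) and Pitx1 (4.37), which act early in the gland, were higher as well. Nr5a1 (4.07) and Gata2 (3.09), known from gonadotrophs and thyrotrophs, had skin intensities of 37 to 47 and 175 to 459. The 4 members that did not pass were Lhx4 (0.36), Hesx1 (0.06), Hmx3 (-0.04) and Hmx2 (-0.28). Hesx1 and Hmx3 lay at or under 27 on all 6 arrays.

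Of 13 genes of dense-core granules and prohormone processing, 11 were higher in pituitary and 0 in skin, with a median of 9.70. The granins are acidic proteins that aggregate in the granule core. Scg2 gave 418399, 449901 and 418671 in pituitary and 18, 8 and 10 in skin (15.21, SE 0.28, or 14.65 floored). Unfloored, this was the largest log2 fold change on the pituitary side, but floored it lay below that of Prl (14.82). Chgb gave 216587, 199821 and 193700 against 27, 10 and 8 (13.94, SE 0.32), and Chga gave 84497, 78167 and 67959 against 20, 20 and 15 (12.04, SE 0.19). Scg5, the chaperone of the convertase PC2 (12.70), Resp18 (12.48, or 11.55 floored) and the prohormone convertase Pcsk1 (9.21) stood with them. The enzymes that trim and amidate the cut peptides differed less. Cpe, carboxypeptidase E, gave 9817, 10535 and 12358 in skin already (2.52, SE 0.26), and Pam, the amidating enzyme, gave 62239, 71182 and 98240 in skin and 93605, 119005 and 97336 in pituitary. Pam (0.44, adjusted p = 0.075 in limma) and Qpct (0.44) did not pass, but without skin array 3 both were called higher in pituitary, at 0.63 and 0.69. Pam was also called after quantile normalization (0.80), with the floor, with the pseudocount and with the robust variance trend (0.44 each).

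The machinery of regulated exocytosis was higher in pituitary for 21 of 24 genes and higher in skin for 2, with a median of 4.11. Snap25, a SNARE protein of the plasma membrane, gave 82027, 67235 and 76898 in pituitary and 20, 15 and 13 in skin (12.22, SE 0.22). The calcium sensor Syt1 (10.39) and the GTPase Rab3b (9.45) came next. The members higher in skin were Rab27b, at 7685, 7794 and 8166 against 2576, 1688 and 2112 (-1.91, SE 0.22), and Rab3d (-0.99, SE 0.19). Both are GTPases of secretory vesicles that also work outside endocrine cells. Cplx1 (0.18) did not pass.

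Of 26 subunits of voltage-gated channels, 21 were higher in pituitary and 1 in skin, with a median of 2.38. Kcnh2, the ERG potassium channel, gave 9357, 8817 and 9116 in pituitary and 20, 12 and 26 in skin (8.95, SE 0.26). Kcnmb2, a beta subunit of the large-conductance calcium-activated potassium channel (6.61), and Cacna1d, an L-type calcium channel (5.66), were higher in pituitary too. The T-type channel Cacna1g was the member higher in skin, at 188, 202 and 170 against 51, 80 and 87.

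Other genes that no list of this kind contained were among the 12 largest differences on the pituitary side. Elapor1 gave 89852, 76368 and 70881 in pituitary and 15, 11 and 17 in skin (12.45, SE 0.22). Oacyl, named for an acyltransferase domain, gave 169834, 47538 and 105852 against 16, 26 and 10 (12.53, SE 0.47), with the widest spread between pituitary arrays of these 12 genes.

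Markers of the other cells that a pituitary sample can hold were mixed. Of 12 genes of stem and folliculostellate cells, 3 were higher in pituitary and 4 in skin, with a median of -0.20. Over all autosomal genes the shares called were similar, at 25.6% and 26.7%. Sox2, the stem cell factor, gave 1614, 1605 and 1815 in pituitary and 64, 53 and 44 in skin (4.98, SE 0.21). Aldh1a2, which makes retinoic acid, was higher by 5.20, and Cyp2f2 by 2.79 (2.09 without skin array 1). S100b (-5.20), Sox9 (-3.51) and Aldh1a1 (-2.63) were higher in skin, and which skin cells carried them was not tested. Gfra2 (-1.14) was called as well but gave -0.64 without skin array 2, with an adjusted p of 0.109 in limma.

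Of 10 posterior lobe genes, 5 were higher in pituitary and 0 in skin, with a median of 0.76. Slc1a3, a glutamate transporter of glia, gave 325, 160 and 251 in pituitary and 30, 49 and 57 in skin (2.43, SE 0.33). Avp gave 54, 52 and 64 against 25, 31 and 23 (1.11, SE 0.25). Oxt (0.42), Gfap (0.38) and Nkx2-1 (0.29) did not pass, and the pituitary intensities of Nkx2-1 were 11 on all 3 arrays.

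Of 11 markers of brain neurons, 8 were higher in pituitary and 0 in skin, with a median of 2.25. The vesicular glutamate transporters Slc17a6 and Slc17a7 gave 239, 410 and 607 and 505, 277 and 767 in pituitary, against 13, 23 and 21 and 32, 32 and 32 in skin. Gad2 (3.54) makes the transmitter GABA, and Camk2a (3.38) is a kinase abundant in forebrain neurons. For both, array 12 had the highest pituitary value. Gad1 (0.52) and Tbr1 (0.15) did not pass, and Tbr1 lay between 15 and 31 on all 6 arrays. The mean log2 level of the 11 genes ranged from 6.63 to 7.11 over the pituitary arrays and from 4.47 to 4.64 over the skin arrays. Of 10 myelin and oligodendrocyte genes, 3 were higher in pituitary, 2 of them at least 4-fold, and 1, Mbp (-2.06), in skin. The 3 in pituitary lie near the share called over all autosomal genes, 25.6%. Of the 6 that did not pass, the myelin genes Mag (0.14) and Mog (0.04) lay at or under 20 on every array. The part of neighbouring brain tissue in the pituitary results was not tested.

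**Figure D3:**
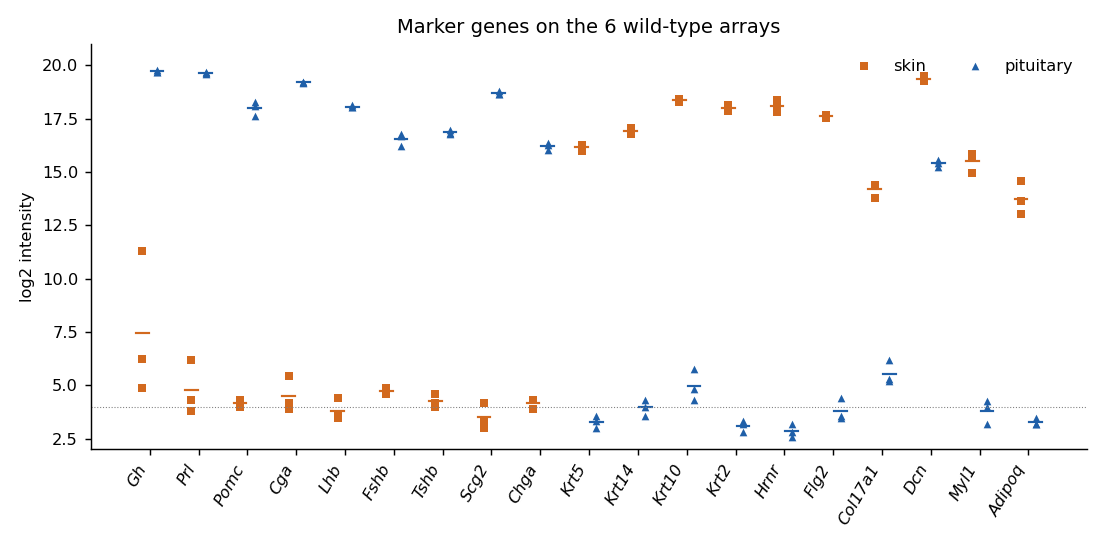
Log2 intensity of 9 pituitary and 10 skin marker genes on the 3 skin arrays (squares) and 3 pituitary arrays (triangles), with a bar at each mean and a dotted line at an intensity of 16. The tissues do not overlap for any of these genes. Those named for the largest fold changes were chosen among genes without overlap, so for them this outcome was fixed beforehand. Over all autosomal genes, all 3 pituitary arrays lay above all 3 skin arrays for 27.6%, and the reverse held for 28.1%. Gh on the skin arrays is the most spread, from 29 to 2501.

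Keratinocyte genes formed the opposite pole. Of 13 basal keratinocyte genes, 10 were higher in skin and 2 in pituitary, with a median of -4.58. Krt14 and Krt5, the keratin pair of the basal layer, gave 137172, 123667 and 113614 and 78356, 79896 and 64494 in skin, against 12, 20 and 16 and 8, 12 and 10 in pituitary. Their log2 fold changes were -12.96 (SE 0.21) and -12.87 (SE 0.22, or -12.17 floored). Trp63, the master regulator of stratified epithelia, gave 14802, 21015 and 38053 against 19, 25 and 22 (-10.03). Col17a1, a collagen of hemidesmosomes, was at -8.64. Itga3 (1.43) and Dst (0.71), an integrin and a plakin found in many cell types, were the members higher in pituitary.

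Of 34 measured genes of the suprabasal layers and cornified envelope, 33 were higher in skin, each at least 4-fold, and 0 in pituitary, with a median of -8.16 (-7.52 floored). Krt10, the keratin of cells leaving the basal layer, gave 345918, 314730 and 355555 in skin and 55, 20 and 28 in pituitary (-13.40, SE 0.28). Krt2, of the upper epidermis, gave 287352, 235245 and 269571 against 10, 7 and 9 (-14.91, or -14.01 floored). Hrnr, a filaggrin-like protein, gave 338008, 227593 and 295244 against 6, 7 and 9 (-15.26, or -14.11 floored). Flg2 (-13.81), Krtdap (-13.23) and Dmkn (-13.03, or -11.97 floored) also ranked among the 12 largest differences. Ivl, which encodes involucrin (-9.29), and Lor, which encodes loricrin (-6.28, or -5.60 floored), were higher in skin too, with Lor at 419, 1331 and 838 there. Sprr3, a small proline-rich protein known from oral epithelium, gave 9, 8 and 8 in skin and 7, 8 and 10 in pituitary, and was the only member that did not pass.

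The 12 largest differences on the skin side also held 3 genes outside these lists. Cytl1, a small secreted protein known from cartilage, gave 410080, 336514 and 553216 in skin and 9, 15 and 8 in pituitary (-15.34, or -14.69 floored). Calm4, a calmodulin-like protein of the epidermis, gave 266685, 243954 and 199094 against 13, 13 and 12 (-14.18, or -13.84 floored). Gm94, a predicted gene, gave 266817, 203272 and 183473 against 14, 23 and 11 (-13.78).

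The lipids between cornified cells are made by their own enzymes, and 16 of 19 such genes were higher in skin and 1 in pituitary, with a median of -5.95. Abca12, which loads lamellar granules, gave 41462, 30457 and 40326 in skin and 15, 16 and 19 in pituitary (-11.13, SE 0.29). Elovl4, which makes very long fatty acids, was at -10.35, and Cers3, a ceramide synthase, at -7.30 (-6.69 floored). The member higher in pituitary was Smpd1 (1.32), a lysosomal sphingomyelinase of most cells.

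Desmosomal genes were higher in skin for 12 of 15 members and in pituitary for 2, with a median of -6.86. Dsg1a gave 96290, 94982 and 118282 in skin and 9, 13 and 10 in pituitary (-13.25, or -12.65 floored), and Dsc3 (-12.34) and Pkp1 (-10.43) lay close to it. Pkp2 (2.20) and Dsg2 (0.88), the plakophilin and desmoglein of simple epithelia and heart, were the members higher in pituitary. Tight and gap junction genes split, with 7 of 14 higher in skin and 4 in pituitary. A pair of claudins lay at opposite ends of this list. Cldn1 gave 18144, 25187 and 47243 in skin and 39, 33 and 26 in pituitary (-9.76, SE 0.37). Cldn9 gave 14, 17 and 20 in skin and 16052, 18455 and 17760 in pituitary (10.01, SE 0.20).

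Of 21 epidermal transcription factors, 19 were higher in skin and 1 in pituitary, with a median of -3.96. Klf4 (-6.78) and Grhl3 (-6.58), both needed for barrier formation, followed Trp63, and Grhl2 was at -4.05. Elf3, an epithelial ETS factor, gave 163, 94 and 108 in pituitary and 19, 28 and 33 in skin (2.19). Hoxc13 (-0.51) did not pass, but was called at -0.74 without skin array 3 and at -0.63 with array weights.

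Hair follicle genes were higher in skin for 27 of 29 members and in pituitary for 0, with a median of -2.29 (-1.69 floored). The count in skin was as low as 20 among the alternatives. For 21 members all 3 skin arrays lay above all 3 pituitary arrays, and 25 members had a pituitary mean under 16. The median was smaller in size in the knockouts, at -0.70 in lncKO and -0.59 in miR-205 KO. Hair follicle genes also varied between wild-type skin samples more than any other group named here. The mean log2 level of the 29 genes ranged from 4.54 to 7.46 over the skin arrays. Krtap6-5, a keratin-associated protein of the hair shaft, gave 33985, 58472 and 337 on skin arrays 1, 2 and 3, and 34 to 40 in pituitary. Tchh, trichohyalin of the inner root sheath, gave 3050, 2692 and 85, and Krtap8-1 gave 648, 1843 and 82. Array 3 was the low one each time. Without it the log2 fold changes became -10.24 for Krtap6-5 (from -7.89), -8.05 for Tchh (from -6.35, or -5.79 floored) and -5.46 for Krtap8-1 (from -4.22). Without skin array 2 they were -6.52, -5.55 and -3.22, and without skin array 1 Krtap6-5 was at -6.91 and Tchh at -5.46.

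Of 14 sebaceous gland genes, 11 were higher in skin and 1 in pituitary, with a median of -4.95. Far2, which reduces fatty acids to the alcohols of wax esters, gave 167775, 173467 and 220590 in skin and 30, 24 and 44 in pituitary (-12.52, SE 0.30). Scd1, a fatty acid desaturase, gave 487900, 671356 and 652155 against 4412, 4751 and 4600 (-7.03). Its relative Scd3 gave 1367, 5836 and 1220 in skin and did not pass (-0.56). Fads2, another desaturase, was higher in pituitary by 5.43, at 48615, 57836 and 50075 against 816, 1542 and 1387.

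Antimicrobial and alarm-signal genes were higher in skin for 16 of 20 members and in pituitary for 1, with a median of -3.62. Defb6, a beta-defensin, gave 35484, 22831 and 19670 in skin and 11, 21 and 17 in pituitary (-10.64), and Il1f5, an antagonist of the IL-36 receptor, was at -8.77. Lcn2, the siderophore-binding lipocalin, was the member higher in pituitary, at 32864, 15461 and 31211 against 644, 503 and 1065 (5.16, SE 0.30).

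Below the epidermis, 21 of 23 fibroblast and matrix genes were higher in skin and 1 in pituitary, with a median of -4.55. Dpt, dermatopontin of the dermal matrix, gave 62305, 56651 and 44787 in skin and 9, 12 and 9 in pituitary (-12.41, or -11.72 floored), and Postn was at -10.82. Dcn and Sparc also had high pituitary values. Dcn, a collagen-binding proteoglycan, gave 621975, 750274 and 657175 in skin and 38793, 49005 and 44546 in pituitary (-3.94), and Sparc was at -4.59. Thy1 was called higher in pituitary (0.85), but gave 0.63 without skin array 3, with an adjusted p of 0.0525 in limma.

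The fat, cartilage and muscle genes were higher in skin. All 10 fat genes were, with a median of -4.91. Adipoq, the adipocyte hormone adiponectin, gave 8309, 24750 and 12683 in skin and 9, 9 and 11 in pituitary (-10.48, or -9.75 floored), and Car3 was at -12.19 (-11.50 floored). Of 14 cartilage genes, 10 were higher in skin and 1, Col11a2 (0.65), in pituitary. Cnmd, chondromodulin, gave 10084, 11576 and 12124 in skin and 19, 21 and 26 in pituitary, and Acan, aggrecan, was at -5.75. Col2a1, the main collagen of hyaline cartilage, gave 12, 21 and 15 in skin and did not pass (0.66). Without skin array 2 (0.88) or pituitary array 12 (0.89) it was called higher in pituitary, as it was after quantile normalization (0.79) and median centring (0.71).

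All 19 skeletal muscle genes were higher in skin, with a median of -7.38. Myl1, a fast myosin light chain, gave 58686, 54983 and 31407 in skin and 9, 19 and 16 in pituitary (-11.70, SE 0.34). Acta1, skeletal actin, gave 12979, 17853 and 8074 against 11, 12 and 13 (-10.01, or -9.59 floored), and Myh4, a fast myosin heavy chain, was at -11.01 (-10.19 floored). The amount of muscle, fat and cartilage in the skin samples was not measured apart from these genes.

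Pigment and immune markers were higher in skin as well. Of 8 melanocyte genes 7 were, with Dct at -5.81 (-4.98 floored) and Tyrp1 at -4.15. Of 8 mast cell genes 7 were. The mast cell protease Cpa3 gave 36516, 30023 and 32280 in skin and 48, 37 and 26 in pituitary (-9.84), and Mcpt4 was at -8.73. Hdc, which makes histamine, did not pass (0.07). Of 9 markers of T cells and Langerhans cells, 7 were higher in skin, among them Cd3g (-4.61) and the Langerhans cell lectin Cd207 (-2.32). Epcam and Thy1 were higher in pituitary, though Thy1 lost its call without skin array 3. Epcam is also an adhesion protein of glandular epithelium and gave 33486, 40558 and 34542 in pituitary against 4424, 5536 and 5175 in skin. All 11 macrophage genes were higher in skin, with Mrc1 at -6.92 and Cd163 at -6.33 (-5.72 floored).

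Vessel genes did not follow 1 tissue. Of 16, 3 were higher in pituitary, 5 in skin and 8 did not pass, with a median of -0.17. These counts lie near the shares called over all autosomal genes, 25.6% in pituitary and 26.7% in skin. The count in skin was 3 without skin array 2, pituitary array 10 or pituitary array 12. Plvap, of the diaphragms of fenestrated endothelium, gave 1421, 1555 and 1009 in pituitary and 202, 361 and 195 in skin (2.43, SE 0.35). Emcn (1.77) and Kdr, the VEGF receptor (1.42), were higher in pituitary, and the tight junction protein Cldn5 (-2.20) and Pecam1 (-1.59) in skin. Cdh5, the cadherin of all endothelium, was at 0.38 and did not pass.

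**Figure D4:**
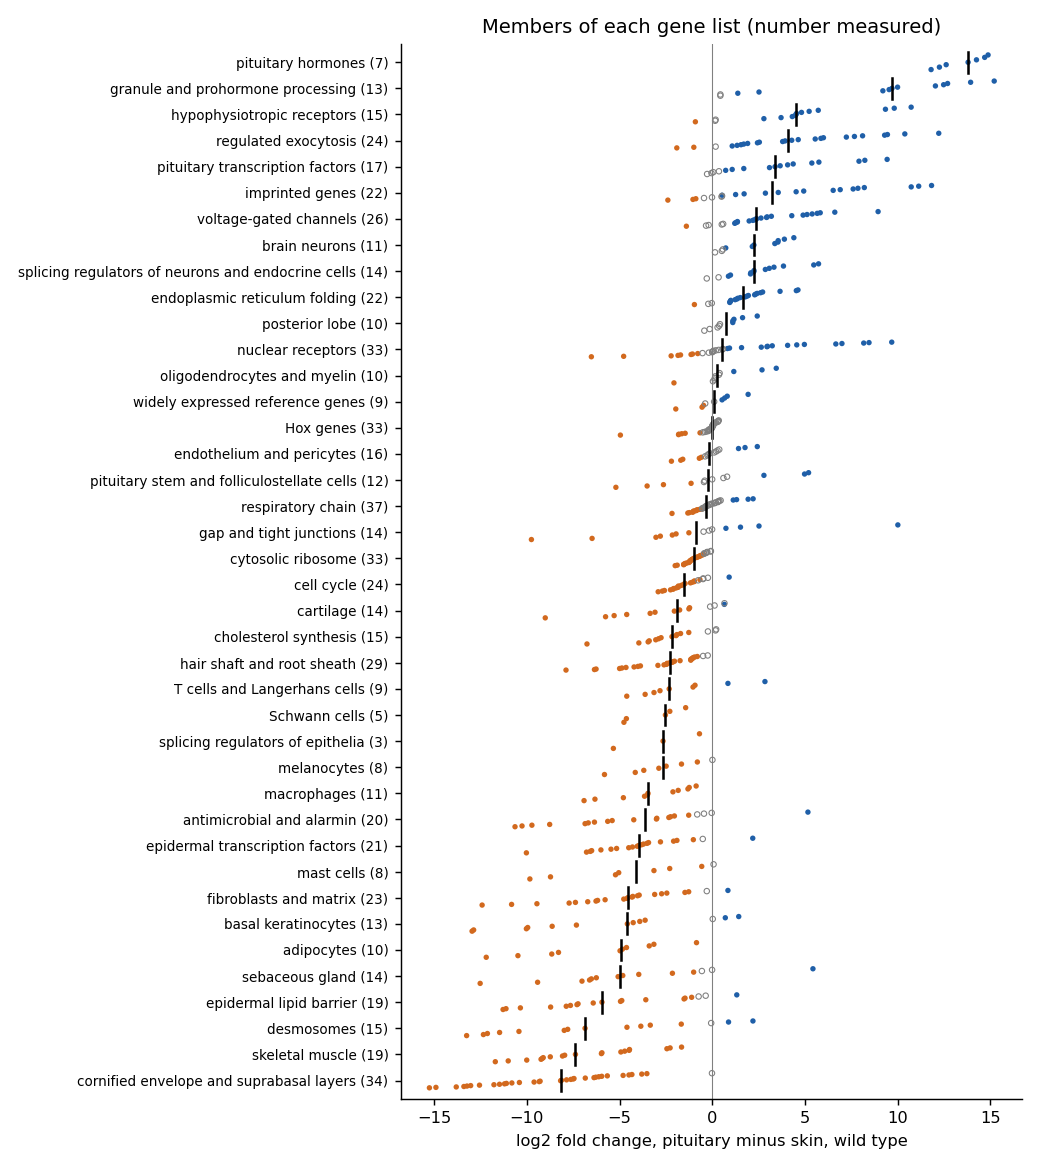
Log2 fold change, pituitary minus skin, of every measured member of 40 gene lists (1 row a list, its size in brackets), with filled points past the threshold and open points not past it. The bar is the list's median, from 13.80 for the hormones to -8.16 for the cornified envelope.

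Nuclear receptors fell on both sides. Of 33, 15 were higher in pituitary, 8 in skin and 10 did not pass, with a median of 0.55. The immediate-early receptors Nr4a1, Nr4a2 and Nr4a3 had log2 fold changes of 6.67, 8.46 and 9.68. Nr4a3 gave 90640, 39107 and 53943 in pituitary and 120, 53 and 54 in skin, and array 10 was highest for all 3. Rorb (8.17, and 6.95 on a second probe set), Rxrg (7.00), the oestrogen receptor Esr1 (4.97) and the thyroid hormone receptor Thrb (2.98) were higher in pituitary. Pparg (-6.52), Rora (-4.78, with 3 probe sets between -4.78 and -0.33) and the vitamin D receptor Vdr (-1.14) were higher in skin. The glucocorticoid receptor Nr3c1 gave 485, 565 and 542 in skin and 640, 652 and 411 in pituitary, and Thra gave 1960, 2089 and 1536 against 1789, 1949 and 1816. Neither passed.

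RNA-binding proteins that set splicing differed between the tissues. Of 14 splicing regulators of neurons and endocrine cells, 12 were higher in pituitary and 0 in skin, with a median of 2.25. Celf3 gave 5444, 4864 and 4043 in pituitary and 46, 95 and 162 in skin (5.74, SE 0.33), and Srrm4, which includes neural microexons, was at 3.33. All 3 epithelial splicing regulators were higher in skin. Esrp2 was at -5.33, with 125, 170 and 115 in pituitary, and Esrp1 at -2.65, with 1216, 1587 and 1372 there.

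Of 22 measured imprinted genes, which are transcribed mainly from the copy of 1 parent, 15 were higher in pituitary and 3 in skin, with a median of 3.21. Nnat gave 691491, 620252 and 618120 in pituitary and 97, 663 and 85 in skin (11.83, SE 0.58, or 12.79 without skin array 2). Mest gave 803968, 711503 and 722101 against 522, 888 and 180 (10.73, SE 0.45, or 10.10 without skin array 3). Dlk1, a Notch-related membrane protein, gave 220592, 259252 and 232055 against 76, 128 and 119 (11.14, SE 0.23). Plagl1 (7.86), Peg3 (6.90) and Gnas (4.53), which encodes the stimulatory G protein, were also higher. The growth factor Igf2 was higher in skin (-2.39), at 1465, 5044 and 4044 against 616, 894 and 374. Of 33 Hox genes, 6 were higher in skin and 0 in pituitary, and 22 had a skin mean under an intensity of 16. Over all autosomal genes 26.7% were called higher in skin and 25.6% in pituitary, so the 6 are not more than that share. Without skin array 3, 1 member was called higher in pituitary. Hoxa2, which patterns the outer ear, gave 471, 843 and 250 in skin and 16, 16 and 13 in pituitary (-4.95), and Hoxd8 was at -1.80.

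Genes of general cell functions were read in the same way. Of 22 genes of protein folding in the endoplasmic reticulum, 19 were higher in pituitary and 1 in skin, with a median of 1.65. The chaperone Hspa5 gave 358562, 355527 and 387926 in pituitary and 65944, 72514 and 78359 in skin (2.35, SE 0.23), and Hsp90b1 was at 2.42. Hyou1 (4.63), Creb3l2 (4.54) and Xbp1 (1.51), a chaperone and 2 transcription factors of the secretory pathway, were higher in pituitary. Dnajb11 (-0.96) was the member higher in skin.

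Of 33 genes of the cytosolic ribosome, 26 were higher in skin and 0 in pituitary, with a median of -0.97, and the count was 19 after quantile normalization. Rplp0 gave 52318, 66628 and 56528 in skin and 15535, 12466 and 15916 in pituitary, and Rps19 was at -1.89 on the log2 scale. Rps23 (-0.27) and Rpl19 (-0.07) did not pass, but Rps23 was called higher in skin after quantile normalization (-0.43) and with the floor (-0.27). Of 37 respiratory chain genes, 12 were higher in skin, 4 in pituitary and 21 did not pass. The 12 lie near the share called over all autosomal genes, 26.7%, and the 4 lie below that of pituitary, 25.6%. The count in pituitary was 7 after quantile normalization. Ndufa4 (-2.17) and Atp5g1 (2.21) were the ends of this list.

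Of 24 cell cycle genes, 19 were higher in skin and 1, the replication helicase subunit Mcm2 (0.91), in pituitary, with a median of -1.54. Mki67, the proliferation marker, gave 4585, 2962 and 2486 in skin and 378, 568 and 582 in pituitary (-2.69, SE 0.41), and Ccna2 was at -2.92. Of 15 cholesterol synthesis genes, 12 were higher in skin and 0 in pituitary, with a median of -2.17. Hmgcs1 gave 84773, 93250 and 121516 in skin and 6324, 6403 and 6312 in pituitary (-3.96), and Hsd17b7 was at -6.76. Of 9 widely expressed reference genes, 4 were higher in pituitary and 3 in skin. Gapdh was higher in pituitary by 0.81 and B2m did not pass (0.10), but was called at 0.49 after quantile normalization. The calls of Actb (-0.47) and Tbp (0.53) were lost under several alternatives, so that this list's counts ranged from 2 to 4 and from 1 to 4.

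The knockout arrays gave the same comparison in other samples. In lncKO, 31.0% of the autosomal genes were called higher in pituitary and 29.1% higher in skin, and in miR-205 KO 32.1% and 29.5%. At least 4-fold differences were called for 10.7% and 9.92% in lncKO and for 11.3% and 10.8% in miR-205 KO. Of the 1614 genes at least 4-fold higher in wild-type pituitary, 1611 were called in that direction in lncKO and 1613 in miR-205 KO, and 0 in the other. Of the 1936 genes at least 4-fold higher in wild-type skin, 1868 and 1876 were called in that direction, and 0 in the other. The genes at least 4-fold higher in pituitary in both wild type and lncKO were 1407, which is 87.2% of the wild-type list and 70.2% of the lncKO list. With miR-205 KO they were 1444, or 89.5% and 68.7%. On the skin side 1558 genes were shared with lncKO (80.5% and 84.1%) and 1606 with miR-205 KO (83.0% and 79.9%). All 3 fits took their variance from the same model.

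The RefSeq table held promoters for 14990 of the 18674 autosomal genes, 18313 in all, each from 250 bases before to 50 bases after a start. TATAAA on the sense strand with its first base 20 to 40 bases before the start was found in 466 of them (2.545%). It was found in 23 of 1771 promoters of genes at least 4-fold higher in pituitary (1.299%) and in 108 of 1885 promoters of genes at least 4-fold higher in skin (5.729%). Among genes at least 256-fold higher the share was 9.524% in pituitary (6 of 63 promoters) and 11.45% in skin (15 of 131). The 6 in pituitary are the promoters of the hormone genes printed above, and of the other 57 promoters in that list 0 had the box. Without the hormone genes the share at 4-fold was 0.9632% in pituitary. Of 10 granule genes with an entry 0 had it. In keratinocytes, 0 of 8 basal genes and 10 of 30 cornified envelope genes with an entry had it. At a share of 2.545% over all promoters, 0 among so few genes does not set the granule or basal genes apart.

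The median number of CpG dinucleotides per promoter was 14 over all autosomal genes, 16 in the list at least 4-fold higher in pituitary and 9 in that of skin. At 256-fold it was 13 and 3. TGANTCA, the letters of the AP-1 site, read on both strands at any place in the 300 bases, was found in 7.164% of all promoters and in 20.61% of those of genes at least 256-fold higher in skin. It was found in 4.762% of those at least 256-fold higher in pituitary. TAATCC, a homeobox motif read by Pitx proteins, was found in 6.449% of all promoters, in 7.937% of those at least 256-fold higher in pituitary and in 9.16% of those at least 256-fold higher in skin. GCCNNNGGC, the AP-2 motif, was found in 20.52%, 12.7% and 10.69% in that order. The 256-fold lists are small, with 63 promoters in pituitary and 131 in skin. In the larger lists, at least 4-fold higher in pituitary and in skin, TGANTCA was found in 4.856% and 10.82%. The shares there were 5.251% and 5.889% for TAATCC and 23.32% and 21.64% for GCCNNNGGC. For TAATCC and GCCNNNGGC the 4-fold lists thus lay on the opposite side of all promoters from the 256-fold lists. These shares describe letters in a window, and the lists were chosen by the fold changes given above.

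**Figure D5:**
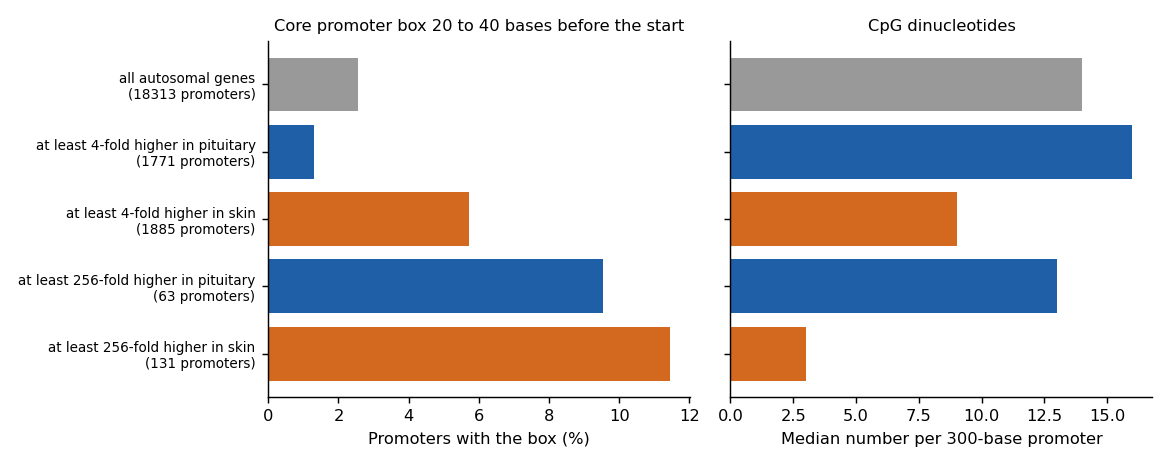
Share of promoters with TATAAA on the sense strand 20 to 40 bases before the start (left, percent) and median number of CpG dinucleotides in the 300-base promoter (right), for all autosomal genes and for the lists at least 4-fold and 256-fold higher in each tissue. The shares are 2.545%, 1.299%, 5.729%, 9.524% and 11.45% from top to bottom.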

How the data were processed

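For each of the 18 arrays the authors deposited linear intensities, whole numbers, 1 for each probe set. How background was corrected, probes summarised and arrays normalized is not given in the sources used here. Of 22206 probe sets, 19572 carry 1 gene symbol in the platform annotation, 0 several and 2634 none. All 19572 were matched to the RefSeq gene table by gene ID. The 18726 autosomal ones stand for 18674 genes, with the probe set of the highest mean used where a gene has several. Log2 intensities were fitted in R 4.3.3 with limma 3.58.1 (lmFit, eBayes), with 6 group terms over 18 arrays and 12 residual degrees of freedom. Adjusted p-values (Benjamini-Hochberg) run over the 19572 named probe sets, with a threshold of 0.05. Array medians lay between 82 and 96. The fit was tested on simulated data in which only a small part of the probe sets changed. In this comparison many genes differed, often by far more, so that test does not cover data of this kind.

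Genes named are members of the gene lists, and the 12 highest and 12 lowest fold changes among genes called whose tissues do not overlap. The comparison, lists and named genes were chosen with earlier results of these data known and with the values of the genes in view, so stability was counted over every gene of the rule. Levels of different probe sets were not ranked. Alternatives were quantile normalization, median centring, a floor or pseudocount of 16, a filter on dim probe sets (mean log2 under 5 in both tissues), the 6 arrays alone, a robust variance trend, array weights, a minimum log2 change of 1, and each array left out.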

Additional observations from a re-analysis of the deposited data

Results flagged for a closer look

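The tissue contrast differed between genotypes for some of the genes named above, tested as an interaction in the same limma fit (Benjamini-Hochberg adjustment over all named probe sets). Over all 18674 autosomal genes the test called 1737 in lncKO against wild type (9.302%) and 1877 in miR-205 KO against wild type (10.05%). Of the 190 genes named in the text it called 42 and 41. The named genes were chosen partly by their wild-type fold changes, which the interaction subtracts. Their counts are therefore not comparable with the shares over all genes. Both differences share the wild-type arrays, so genes called in both are not independent evidence, and the difference can lie in skin, in pituitary or in both. Values are the log2 fold change of pituitary over skin in the knockout minus that in wild type.

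In lncKO the contrast was more positive for Gh (4.48), Krtap8-1 (4.42), Oxt (2.85), Sox2 (2.67), Tbx19 (2.53), Cplx1 (2.49), Pitx1 (2.22), Nr5a1 (2.20), Grhl2 (2.05), Itga3 (1.99), Cers3 (1.78), Gad2 (1.62), Elf3 (1.60), Gnrhr (1.57), Celf3 (1.52), Rorb (1.50), Chga (1.47), Avp (1.35), Vdr (1.27), Mcm2 (1.27), Pcsk1 (1.19), Hoxc13 (1.17), Syt1 (1.16) and Rab27b (1.14). It was more negative for Scd3 (-4.82), Acan (-2.99), Sstr2 (-2.79), Sstr5 (-2.63), Cldn5 (-2.42), Dpt (-2.36), Pparg (-2.29), Nr4a3 (-2.20), Myl1 (-2.09), Nr4a2 (-2.01), Tyrp1 (-1.38), Hsd17b7 (-1.36), Dsg1a (-1.36), Scd1 (-1.35), Cnmd (-1.34), Tshb (-1.30), Xbp1 (-1.12) and Elovl4 (-1.07).

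In miR-205 KO the contrast was more positive for Krtap8-1 (4.26), Cplx1 (3.38), Cers3 (2.77), Oxt (2.68), Pitx1 (2.62), Slc17a7 (2.61), Nr5a1 (2.44), Itga3 (2.14), Celf3 (1.90), Sox2 (1.73), Grhl2 (1.70), Esrp2 (1.65), Slc17a6 (1.61), Gad2 (1.56), Pcsk1 (1.55), Mcm2 (1.45), Elf3 (1.40), Vdr (1.37), Avpr1b (1.28), Tbx19 (1.27), Chga (1.17), Snap25 (1.08), Plagl1 (1.08), Rorb (1.05) and Calm4 (0.86). It was more negative for Scd3 (-4.05), Acan (-3.17), Myl1 (-2.77), Dpt (-2.35), Cldn5 (-2.21), Mki67 (-2.20), Tshb (-2.07), Postn (-1.99), Car3 (-1.82), Hoxa2 (-1.79), Pparg (-1.72), Gfra2 (-1.66), Cnmd (-1.57), Tyrp1 (-1.31), Sparc (-1.15) and Hoxd8 (-0.95).

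For Gh the wild-type skin values were 2501, 29 and 76 and those of the 6 knockout skin arrays 7 to 15. For Tshb the wild-type skin values were 24, 16 and 18 and those of the knockout skin arrays 37 to 63. Groups of 3 arrays were not tested for single arrays that stand apart.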

How the results depend on the processing

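The minimum log2 change of 1 was applied only to the counts of genes at least 4-fold apart. Under the other alternatives, and under this one for those counts, the counts of genes called stayed within 1.5 times their value in the report. Genes higher in wild-type pituitary numbered 4504 to 5214 against 4772, and 4446 to 4621 when 1 array was left out. Quantile normalization moved the share of calls higher in pituitary from 48.9% to 53.0%. The genes of the text are a selection, so stability was counted over all 693 genes that the naming rule covers. Of the 549 called, 48 lost the call under at least 1 of the 14 other alternatives and 0 turned their sign. Of the 144 not called, 32 gained a call and 52 turned their sign. Of 80 counts of list members, 9 moved by over 1.5 times in at least 1 alternative.

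The genes of the text that turned their sign had not passed in the report. Quantile normalization gave 0.040 for Sprr3, 0.062 for Hmx3 and 0.27 for Rpl19, and centring on array medians gave 0.032 for Sprr3 and 0.0041 for Hmx3. Mog was at -0.11 with the floor, -0.012 with a pseudocount of 16 and -0.019 with array weights, which also gave 0.056 for Sprr3, -0.048 for Nr3c1 and -0.011 for Thra. With 1 array left out, the values ran from -0.15 to 0.10 for Sprr3, -0.45 to 0.033 for Hmx2, -0.25 to 0.51 for Mog, -0.96 to 0.17 for Scd3, -0.14 to 0.39 for Hesx1, -0.15 to 0.36 for Cplx1, -0.21 to 0.27 for Hdc, -0.13 to 0.093 for Thra, -0.096 to 0.43 for Tbr1, -0.046 to 0.29 for Nr3c1, -0.014 to 0.58 for Lhx4 and -0.16 to 0.020 for Rpl19. The cause was not tested.

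No paired analysis was made, because the sample numbers run from 1 to 18 and do not say which samples, if any, share an animal. With 3 arrays a group, their number limits the precision, and intensities at or under 16 limit the size of the largest fold changes.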
